A study of Rattus norvegicus with 54 samples.

Results

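The comparison was differentiation of neural progenitor cell (NPC) cultures grown from the subventricular zone (SVZ) of rats with experimental autoimmune encephalomyelitis (EAE), a model of multiple sclerosis in which immune cells attack myelin of brain and cord. Members were chosen by sample title alone, which gave 3 arrays of differentiated and 3 of undifferentiated cultures, 6 of the 54 samples in all. All came from Dark Agouti rats with EAE. Undifferentiated cultures were taken at the end of the second passage, and differentiated ones went through the same passages and then 5 days of differentiation. The labels name no induction protocol, animal age, medium or growth factor. They do not say whether replicates were separate animals or cultures, so the p-values rest on the spread of these arrays alone, and that spread may be technical. The study as a whole placed 54 samples in 18 groups of 3: cultures of the SVZ and of the cervical, thoracic and caudal spinal cord, from naive rats and rats with EAE, at both stages, and uncultured SVZ tissue. The groups set beside the SVZ EAE cultures here were 6 arrays of SVZ cultures from naive Dark Agouti rats and 18 arrays of cord cultures from Dark Agouti rats with EAE, at the same 2 stages.

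The SVZ is a germinal layer beside the lateral ventricles of the forebrain, where progenitors stay able to divide into adult life and give rise to interneurons of the olfactory bulb and to glia. Such progenitors are commonly grown with epidermal and fibroblast growth factor, whose signal runs through the ERK kinases to immediate early genes and to feedback inhibitors of the Sprouty and dual-specificity phosphatase families. When those factors are withdrawn the cells turn to astrocytes, oligodendrocytes and neurons, and ciliated ependymal cells line the ventricle next to the niche.

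RNA was measured as biotin-labelled total RNA on 1 Affymetrix array per sample, in linear signal units, and the number of arrays limits the precision. Median signals were 80 to 100 on the 12 arrays of SVZ cultures, and 59% to 65% of probe sets exceeded a signal of 50, the limit the study used. Within each EAE group the arrays correlated at 0.993 to 0.995. Differentiated naive replicate 3 stood apart, with correlations of 0.958 and 0.954 to its companions, and the comparison with naive cultures is given with and without it. No 2 arrays were identical. Several defining markers of the labelled cell type were present on the undifferentiated arrays, where the progenitor genes Nes, Sox2 and Egfr had signals between 1725 and 2793. Gfap, the microglial genes Aif1, Csf1r and C1qa and the fibroblast gene Col1a1 were at or below 50 there. The progenitor gene Prom1 was also at or below 50 on all 6 arrays. Genes of other lineages were not all dim. The astrocyte transporter gene Slc1a2, the oligodendrocyte genes Gjc3 and Mbp and the young neuron gene Dcx exceeded 50 on every undifferentiated array, with values given below.

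Differentiation changed many of the transcripts that could be tested, and how many depended on the estimate of the spread. Of 17426 probe sets with a signal above 50 on at least 3 arrays, 9554 passed an adjusted p of 0.05 and a fold of 1.2 in limma, which is 54.8%. With all 18 groups of the study sharing 1 estimate of the spread, 5334 passed. Of the tested probe sets, 26.3% were higher after differentiation and 28.5% were lower, and "rose" and "fell" below mean passing that test. The arrays of both stages did not overlap for 66.5% of tested probe sets. A count of genes in a list is to be read against these shares.

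The largest rises included the astrocyte genes Gfap and Aqp4. The signal of Gfap, the intermediate filament of astrocytes, was 29.1, 40.1 and 43.7 on the undifferentiated arrays and 4973, 6335 and 5605 on the differentiated ones. All undifferentiated arrays lay under the limit of 50, so the rise was at least 112.2-fold (adjusted p = 7.31e-09). Aqp4, the water channel of astrocyte end feet, went from 62.9, 75.7 and 64.8 to 9438, 10545 and 9238, a log2 difference of 6.86 ± 0.09 (SE, adjusted p = 1.26e-09). Differences are on the scale of log2(signal + 16), which understates changes of dim genes, and a bound ("at least") divides the mean signal of the bright group by 50.

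Rgs22, a regulator of G protein signalling, had the largest difference among genes that rose. Its signals were 23.5, 31.2 and 24.6 before and 11461, 12494 and 7989 after differentiation, at least 209.2-fold higher, and its 9 other probe sets rose by 4.40 to 6.52. Of the other 9 leading genes, Ifgga2l1, by its name an interferon-inducible GTPase, went from 13.2, 12.5 and 11.9 to 4603, 8772 and 6830. Dnali1, a dynein chain of the ciliary axoneme, went from 20.5, 13.8 and 16.1 to 3505, 3129 and 2371. The groups were far apart in each case. Id3, an inhibitor of bHLH transcription factors, rose at least 73.3-fold, and Rbp4, the plasma carrier of retinol, went from 163.6, 172.7 and 170.2 to 11674, 13752 and 11643. Clu, a secreted chaperone, Nkain4, Calhm5, RGD1559879 and the cilia gene Cfap144 completed the 12.

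The falls were led by Nrgn and Il20rb. Nrgn, the calmodulin-binding protein neurogranin, had signals of 45443, 39245 and 34747 in undifferentiated and 183.2, 172.7 and 174.2 in differentiated cultures, a log2 difference of -7.68 ± 0.11 (adjusted p = 1.26e-09). Il20rb, a receptor subunit for cytokines of the interleukin-20 family, went from 9247, 8562 and 9443 to 50.9, 53.8 and 58.7. Again no array of one stage came near those of the other. The immediate early genes Fosb, Arc, Nr4a1 and Fos were among the 12, with Igfbp4, which binds insulin-like growth factors, the transmembrane lectin Cd93, the lipid kinase Dgkg, the receptor genes Gfral and Mchr1, and the aminopeptidase Anpep.

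**Figure D1:**
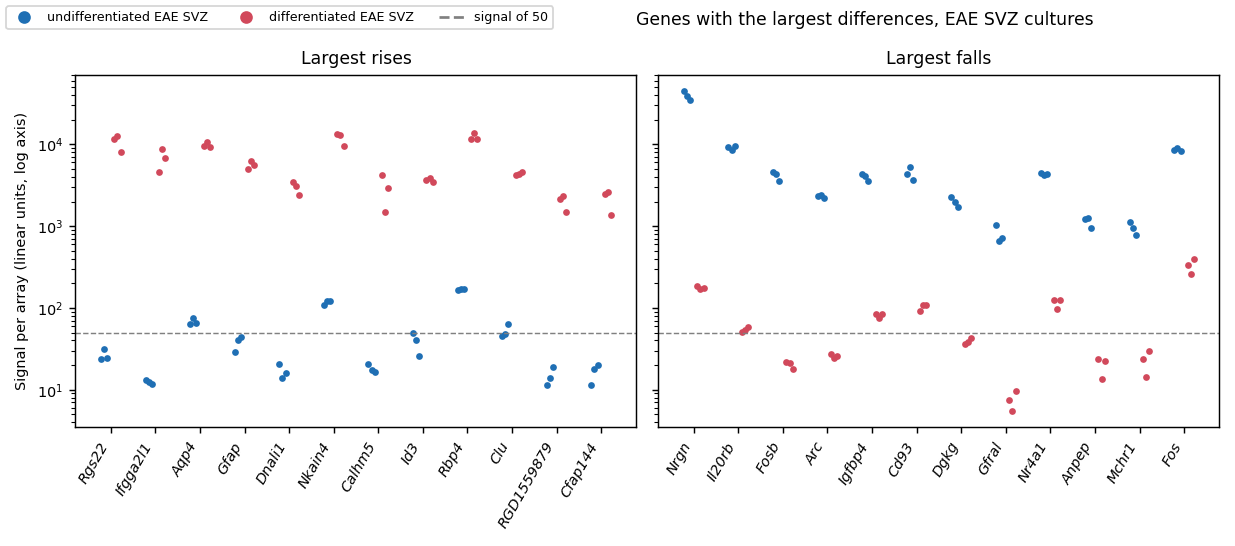
Signal of the 12 genes with the largest rise (left) and the 12 with the largest fall (right) on each of the 6 arrays, on a log axis, with the study's signal limit of 50 as a dashed line. Blue points are undifferentiated and red points differentiated arrays, and the stages do not overlap for any of the 24 genes.

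Immediate early genes, which are transcribed within minutes of growth factor or calcium signals, fell almost as a body. Of the 21 measured, all tested, 18 fell and 2 rose, with a median log2 difference of -3.08, and 4 of them had no differentiated array above 50. Fosb, a partner of Jun proteins in the AP-1 factor, went from 4652, 4377 and 3573 to 21.9, 21.2 and 17.9, at least 83.5-fold lower (adjusted p = 3.38e-09). Fos itself went from 8584, 8942 and 8220 to 334.8, 260.4 and 397.7, a difference of -4.65 ± 0.14. Arc, which acts at synapses, fell at least 46.1-fold and the zinc finger gene Egr2 at least 15.6-fold. The 2 that rose were Ier3, at 271.8 to 325.5 before and 525.6 to 583.7 after, and Ier5, by 0.60 ± 0.15.

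The proximal promoters of Egr1 and Egr2 are printed because they hold the serum response element, the binding site through which serum response factor acts on immediate early genes. Egr1 went from 3424, 3915 and 4427 to 254.8, 168.5 and 299.8, a log2 difference of -3.96 ± 0.19 (adjusted p = 5.57e-07). The windows run from 250 bases before the RefSeq start to the first 50 bases of the gene, 5′ to 3′ on the strand of the gene in assembly GRCr8, at chr18:26736828-26737127 (plus strand) and chr20:21054392-21054691 (minus strand). Capitals mark matches to the CArG box, searched on both strands.
Egr1: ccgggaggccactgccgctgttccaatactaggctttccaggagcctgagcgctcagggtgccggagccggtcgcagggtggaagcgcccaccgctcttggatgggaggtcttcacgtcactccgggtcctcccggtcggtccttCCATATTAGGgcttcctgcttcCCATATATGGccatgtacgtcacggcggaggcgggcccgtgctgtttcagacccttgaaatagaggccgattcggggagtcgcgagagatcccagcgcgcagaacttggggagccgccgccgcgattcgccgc
Egr2: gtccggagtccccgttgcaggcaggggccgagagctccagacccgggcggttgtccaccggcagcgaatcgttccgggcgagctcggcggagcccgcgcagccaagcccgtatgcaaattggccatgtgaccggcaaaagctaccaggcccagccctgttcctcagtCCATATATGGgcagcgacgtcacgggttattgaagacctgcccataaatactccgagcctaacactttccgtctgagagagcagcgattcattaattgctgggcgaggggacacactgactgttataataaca
Of the 14 immediate early genes with a promoter in the RefSeq table, 3 held a CArG box in this window (Egr1, Egr2 and Zfp36), or 21.4%, beside 1.64% of all 27457 promoters. The cyclic AMP response element TGACGTCA was in 3 others, Btg2, Ier2 and Jund, beside 1.91% of all promoters. A match describes the letters and does not show that a factor was bound.

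Feedback inhibitors of growth factor signalling, induced by ERK and acting back on it, fell in 17 of 18 genes, with a median of -1.72. Dusp6, an ERK phosphatase, went from 3882, 3507 and 5089 to 530, 331.6 and 439.4 (log2 difference -3.22 ± 0.18, adjusted p = 1.61e-06). Spry4, a Sprouty inhibitor, went from 1892, 1696 and 2051 to 142.9, 80.8 and 126.3, and the ETS factor Etv4 from 1746, 1534 and 1470 to 57.4, 42.4 and 59.7. No differentiated array reached an undifferentiated one for any of these. Dusp7 alone rose, by 0.63 ± 0.11. Among receptors and ligands of the same pathway 10 of 16 tested rose and 3 fell, and 3 of the 16 had no undifferentiated array above 50. The EGF receptor Egfr went from 1939, 1825 and 1725 to 373.9, 331 and 371.1 (-2.30 ± 0.09) and Fgfr1 fell by 1.03 ± 0.12, while Fgfr2 rose by 2.37 ± 0.24 and the EGF family ligand Hbegf by 2.58 ± 0.17. The ligand Fgf1 had no undifferentiated array above 50 and rose at least 3.37-fold.

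Genes that mark neural stem and progenitor cells went in both directions. Of 17 tested 6 fell and 3 rose, with a median of -0.05, where 28.5% of all probe sets were lower and 26.3% higher. Nes, the intermediate filament nestin, went from 2105, 1986 and 2144 to 1181, 660 and 943.3, a difference of -1.19 ± 0.18 (adjusted p = 0.000579) with the lowest value on differentiated replicate 2. Sox2, a factor of the progenitor state, was at 2793, 2574 and 2358 before and 2378, 2406 and 2401 after (-0.10 ± 0.09) and did not pass the test, with overlapping arrays. The radial glia gene Msi1 rose by 1.21 ± 0.08.

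Cell cycle genes fell by small amounts. Of 37 genes of S phase and mitosis 20 fell and 1 rose, with a median of -0.41, and the arrays overlapped for 12. In a fit over all 12 SVZ arrays 8 of the 37 fell, where 25.4% of all probe sets were lower. Mki67, a marker of dividing cells, went from 670.2, 795 and 676.4 to 484.2, 311.8 and 428 (-0.80 ± 0.15, adjusted p = 0.00201, or 0.0627 in a fit over all 12 SVZ arrays). Top2a, which untangles DNA for mitosis, was at 1009, 1083 and 1049 before and 1050, 823.9 and 972.6 after (-0.15 ± 0.10) and did not pass. The falls were largest among genes of DNA replication, Tyms at -0.99 ± 0.11, Mcm3 at -0.88 ± 0.15 and Mcm5 at -0.82 ± 0.20. Aurkb, a mitotic kinase, went the other way, from 234.4, 241.1 and 218.8 to 1806, 1729 and 1326 (2.71 ± 0.12, adjusted p = 4.02e-07). Differentiated replicate 1 was the highest of its group for all 37 genes and replicate 2 the lowest for 34. With 1 array left out the number of falls ran from 14 to 23.

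Of 17 cyclins, kinases and inhibitors of G1 phase 9 fell and 4 rose. The growth factor-dependent cyclin Ccnd1 went from 7104, 6673 and 7014 to 1897, 1270 and 1717 (-2.10 ± 0.14), and Myc fell by 1.36 ± 0.13. The CDK inhibitor Cdkn1c rose by 0.97 ± 0.13. With 1 array left out 5 to 7 of them were called lower.

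Of the 16 astrocyte genes tested 10 rose and 5 fell, with a median of 0.98. Beside Gfap and Aqp4, the urea transporter Slc14a1 went from 243.2, 253.9 and 161.6 to 1452, 1843 and 2047 (2.94 ± 0.18), Mlc1 rose by 1.68 ± 0.09 and S100b by 1.41 ± 0.10. Transporters were among the falls. Slc1a2, the main glutamate transporter of mature astrocytes, went from 2309, 2353 and 2163 to 492.7, 508.6 and 830.4 (-1.91 ± 0.18, adjusted p = 3.32e-05), Slc1a3 fell by 0.72 ± 0.08 and the bicarbonate transporter Slc4a4 by 2.07 ± 0.11. The stages did not overlap for any of these. Transporters of ions, water and amino acids as a list had 9 rises and 9 falls among 20. The GABA transporter Slc6a11 fell by 3.99 ± 0.19. The potassium channel Kcnj16 fell by 3.15 ± 0.12, and the pump regulator Fxyd1 rose by 4.62 ± 0.15.

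Genes listed for reactive astrocytes rose in 15 and fell in 1 of 20 tested, 7 of which had no undifferentiated array above 50. The sphingosine receptor S1pr3 went from 85.8, 86.9 and 53.6 to 4409, 4464 and 4124 (5.59 ± 0.15) and the small heat shock protein Hspb1 rose by 5.10 ± 0.17. Complement C3, chosen after its values were seen, ran from 122.4 on differentiated replicate 1 to 269.9 and 800.8 on the others. Lcn2 and Serpina3n, common markers of that state, were too dim to be tested, with at most 1 array above 50.

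BMP signalling, which favours astrocytes and induces Id genes, was represented by 17 tested genes, of which 13 rose and 2 fell. Its ligand Bmp6 went from 17.9, 20.8 and 16.3 to 2087, 1984 and 2114, at least 41.2-fold (adjusted p = 1.26e-09), and Bmp4 from 16.5, 24.9 and 12.1 to 308.1, 432.7 and 322.9, at least 7.01-fold. Among the targets Id3 went from 49, 40.9 and 25.8 to 3648, 3842 and 3510, Id1 rose by 1.49 ± 0.11 and Id4 by 2.53 ± 0.22. The antagonist Chrdl1 rose by 3.60 ± 0.14. The receptor Bmpr2 and the ligand Bmp7 fell by 0.85 ± 0.08 and 0.71 ± 0.12. The list had a median of 1.47, or 1.27 with its 6 members that were dim before differentiation at their bound.

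Oligodendrocyte progenitor genes were mixed. Of 15 tested 8 rose and 4 fell, and 3 of the 15 had no undifferentiated array above 50. The receptor Pdgfra went from 244.9, 229.2 and 234.6 to 1549, 1574 and 1687 (2.68 ± 0.08, adjusted p = 3.95e-08), and Gpr17, a receptor of cells about to mature, from 103.9, 99.1 and 114.1 to 1471, 1343 and 1514 (3.58 ± 0.09). Both were tight within each stage. Sox10, the lineage's transcription factor, rose at least 4.68-fold. The factors Olig1 and Olig2 fell by 1.59 ± 0.08 and 1.14 ± 0.11, from 7020 or more to 2580 or less for Olig1. Enpp6 had signals of 84.5, 706.1 and 78.9 after differentiation, so that replicate 2 set its level.

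Myelin genes rose in 13 and fell in 3 of 19 tested, by amounts that differed between arrays. Of the 19, 3 had no undifferentiated array above 50. In the fit of 12 SVZ arrays 4 of 21 tested rose and 3 fell, where 23.8% of all probe sets were higher. Mbp, a structural protein of compact myelin, was at 281.2, 244.8 and 104.9 before and 503.9, 1945 and 792.7 after (2.15 ± 0.48, adjusted p = 0.00467). The lowest differentiated array lay above the highest undifferentiated one. In a fit over all 12 SVZ arrays its adjusted p was 0.0696. Differentiated replicate 1 was lowest of its group for 20 of the 22 measured genes and undifferentiated replicate 3 for 20. Gjc3, a connexin of oligodendrocytes, fell from 3182, 3016 and 2930 to 145.7, 570.7 and 260.8 (-3.36 ± 0.38), and the carbonic anhydrase Car2 by 2.94 ± 0.16. Opalin and Hapln2, markers of mature cells, were not tested.

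Neuronal genes rose in 14 and fell in 2 of 19 tested, 7 of which had no undifferentiated array above 50. Dcx, a microtubule protein of migrating young neurons, went from 509.6, 508.6 and 644.8 to 870.8, 999.1 and 725.2 (0.62 ± 0.14, adjusted p = 0.00431), and Tubb3 rose by 1.22 ± 0.12. Stmn2 went from 28.4, 14.9 and 22.7 to 205.7, 163.8 and 208.9, at least 3.83-fold, and Ncam1 rose by 1.88 ± 0.10. Map2, a microtubule protein of dendrites, fell by 0.76 ± 0.08. In the lineage of GABA interneurons, to which SVZ neurons belong, 7 of 16 tested genes rose and 2 fell. Dlx5 went from 5.18, 4.63 and 4.33 to 87.8, 105.3 and 73.7 and Dlx2 rose by 0.87 ± 0.11, while Gad1, which makes GABA, overlapped (0.23 ± 0.23).

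Most factors of forebrain position did not pass the test. Of 15 tested 2 rose and 2 fell, with a median of -0.04. Meis2 fell by 0.38 ± 0.09 and Emx2 by 0.31 ± 0.10. The call of Emx2 was lost without differentiated replicate 1 or 2 or undifferentiated replicate 1 or 2. Of 25 measured Hox genes, which mark hindbrain and cord, 16 were too dim to be tested, Hoxa5 among them with no signal above 5. Hoxb7, Hoxa4 and Hoxb4 rose by 0.69 ± 0.16, 0.58 ± 0.12 and 0.34 ± 0.12. The call of Hoxb4 was lost under quantile and 75th percentile scaling and without any one of 4 arrays, differentiated replicates 2 and 3 and undifferentiated replicates 1 and 3.

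Genes of motile cilia, the hallmark of ependymal cells, rose in 19 of 21 measured and tested genes and fell in none, with a median of 2.97, and 8 of them had no undifferentiated array above 50. Cfap43, a protein of the axoneme, went from 2.31, 5.44 and 13.6 to 1376, 1541 and 981.4, at least 25.5-fold (adjusted p = 1.15e-07). Spag6l of the central apparatus went from 34.1, 79.4 and 41.3 to 3402, 3543 and 2186 (5.53 ± 0.26), and Rsph1, a radial spoke protein, from 19.7, 26.4 and 18.6 to 994.5, 1052 and 623.1. In each the lowest differentiated array was replicate 3, as for all 21 genes. The 2 that did not pass were the dynein Dnah5 (0.28 ± 0.14) and the regulatory factor Rfx3 (-0.18 ± 0.11). Foxj1, the factor that drives motile cilia, had no probe set with a single gene symbol and was not analysed here. The X-box, the binding motif of RFX factors, was found in 2 of 18 promoters of the list (Cfap44 and Hydin) beside 0.666% of all promoters, a motif chosen after the values were seen.

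Interferon response genes rose almost without exception. Of 23 measured, all tested, 22 rose and 1 fell, with a median of 3.04, and 6 had no undifferentiated array above 50. Isg15, a ubiquitin-like protein induced by interferon, went from 52.8, 49.7 and 59.9 to 2207, 4440 and 3299 (5.52 ± 0.22, adjusted p = 2.03e-07). Mx1, an antiviral GTPase, rose by 5.48 ± 0.35, Usp18, which removes Isg15 from proteins, at least 22.0-fold and the antiviral enzyme Rsad2 at least 27.4-fold. Ifit3, an RNA sensor partner, was variable in both groups, at 115.5, 15.9 and 54.8 before and 1732, 8086 and 3905 after (5.84 ± 0.60). Differentiated replicate 1 was lowest for 21 of the 23 genes and replicate 2 highest for 18.

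The promoters of Ifit3 and Rsad2 are shown for the interferon-stimulated response element, the site of the STAT and IRF factors that interferon activates. They are windows of the same length and assembly as above, at chr1:241527076-241527375 (plus strand) and chr6:48788071-48788370 (minus strand), with matches on either strand to 2 copies of GAAA separated by any 2 bases in capitals.
Ifit3: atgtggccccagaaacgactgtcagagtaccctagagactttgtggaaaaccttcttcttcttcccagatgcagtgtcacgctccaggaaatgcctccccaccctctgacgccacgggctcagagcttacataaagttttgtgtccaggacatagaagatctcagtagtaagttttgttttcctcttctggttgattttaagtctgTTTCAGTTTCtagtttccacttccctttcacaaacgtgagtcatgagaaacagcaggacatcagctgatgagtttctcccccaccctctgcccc
Rsad2: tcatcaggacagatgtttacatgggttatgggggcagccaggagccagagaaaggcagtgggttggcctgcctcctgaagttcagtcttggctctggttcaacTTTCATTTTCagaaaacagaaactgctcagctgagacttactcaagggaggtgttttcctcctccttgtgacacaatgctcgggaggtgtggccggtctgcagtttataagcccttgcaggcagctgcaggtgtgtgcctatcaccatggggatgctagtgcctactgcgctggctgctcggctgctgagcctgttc
Among the 17 interferon response genes whose promoter was listed, 12 held that motif, or 70.6%, beside 3.77% of all promoters. The motif was chosen after the values were seen, and since it is part of how such genes are known, its presence is a description of the list.

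Antigen presentation and cytokine genes were examined next. Of 8 tested antigen presentation genes 7 rose, with the immunoproteasome subunits Psmb8 and Psmb9 at 2.37 ± 0.16 and 2.15 ± 0.12 and the peptide transporter Tap1 at 1.28 ± 0.13. Among cytokines and chemokines 7 of 16 tested rose, 1 fell and 8 did not pass. The interferon-induced chemokine Cxcl10 went from 81, 65.2 and 57.1 to 579.6, 3760 and 1761 (4.25 ± 0.54), again lowest on replicate 1 and highest on replicate 2. Cntf, a survival factor made by astrocytes, went from 159.6, 122.7 and 128.3 to 1992, 1945 and 2094 (3.74 ± 0.10), and Csf1, which sustains microglia, rose by 2.80 ± 0.14. The alarmin Il33 fell by 1.73 ± 0.17.

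Most markers of microglia and macrophages were at or near background before differentiation and low after it. Of 24 measured genes 2 were above 50 on each undifferentiated array, against 7, 22 and 17 on differentiated replicates 1, 2 and 3. Their summed signal was 970 to 991 before and 1843, 3932 and 2470 after. Csf1r, the receptor for Csf1, went from 11.8, 9.56 and 5.96 to 42.5, 195.7 and 85.4, and C1qa from 4.59, 9.18 and 1.88 to 26.1, 121.5 and 52.1. Of the list 17 genes were not tested, so no count is drawn from the 7 that were. Over the 24 genes, differentiated replicate 2 was the highest of its group for 23 and replicate 1 the lowest for 23. On differentiated EAE replicates 1, 2 and 3 the interferon list score was 9.72, 10.67 and 10.40. The myelin list score was 7.82, 8.65 and 8.31 there. Replicate 2 was highest and replicate 1 lowest in both scores, as in the microglial sum. On differentiated naive replicates 1, 2 and 3 the microglial sums were 1416, 1327 and 5792. The interferon scores there were 9.10, 9.02 and 7.47 and the myelin scores 7.30, 7.16 and 10.15. The part of such cells in the interferon result was not tested. In a bulk measurement, more cells of a type and more RNA per cell cannot be told apart, here and for every list.

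Of 21 measured pericyte and fibroblast genes 9 rose, 1 fell, 2 did not pass and 9 were too dim to be tested. Of the 12 tested, 4 had no undifferentiated array above 50 and 1 had no differentiated one. The genes above 50 numbered 7, 8 and 6 on undifferentiated replicates 1, 2 and 3, and 11, 12 and 11 on the differentiated ones. The summed signal of 21 genes was 1131 to 1720 before and 17639, 12239 and 14257 after. Col1a1, a chain of collagen I, went from 34.8, 39.7 and 29.1 to 1762, 1008 and 942.5, at least 23.8-fold, Ogn, a matrix proteoglycan, rose at least 27.2-fold and Tagln, an actin-binding protein, by 3.91 ± 0.29. The defining fibroblast genes Dcn and Lum were at or below 50 on all 6 arrays, as were Postn, Aspn and Fap, and the pericyte gene Rgs5 fell by 2.37 ± 0.17. Endothelial genes summed to 412 to 436 before and 442 to 502 after. Schwann cell genes rose in 4 and fell in 3 of 9 tested, of which 2 had no undifferentiated and 1 no differentiated array above 50.

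Genes of the Notch pathway, which keeps progenitors undifferentiated, fell in 9 and rose in 2 of 16 tested. The feedback inhibitor Nrarp went from 1692, 1361 and 1673 to 133.7, 87 and 114.5 (-3.65 ± 0.15), and the ligand Jag1 and the receptor Notch2 fell by 1.56 ± 0.15 and 1.26 ± 0.12. Hes1, the classical target, went from 1702, 1383 and 887.2 to 585.6, 567 and 558.2 (-1.14 ± 0.20), while Hes5 overlapped (-0.36 ± 0.15) and the ligand Dll3 rose by 1.05 ± 0.19. The letters GTGGGAA, a binding site of the Notch effector, were in 5 of 17 promoters of this list, 29.4%, beside 6.19% of all. Of the other motifs chosen with the lists, the sterol element TCACNCCAC was in 0 of 15 promoters of cholesterol synthesis genes, beside 1.13% of all. The letters TTTGAA (CHR) and CCAAT were in 42.9% and 75% of 28 promoters of S phase and mitosis genes, beside 18.1% and 37.7% of all.

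Other signalling lists had members in both directions. Of 17 Wnt genes 5 rose, among them the receptors Fzd8 at 2.01 ± 0.14 and Fzd1 at 1.38 ± 0.10, and 6 fell, with 3 falls called without differentiated replicate 2. The target Axin2 fell by 0.41 ± 0.15, a call lost when any array other than undifferentiated replicate 2 was left out. Of 6 hedgehog genes tested, the receptor Ptch1, the inhibitor Sufu and the co-receptor Cdon fell and Boc rose. In the IGF system 6 of 12 fell, Igfbp4 from 4300, 4087 and 3525 to 85, 76.3 and 83.8 and Igfbp2 from 23982, 21372 and 20477 to 8243, 4160 and 5214. Matrix genes of neural cells rose in 9 and fell in 7 of 17, of which 3 had no undifferentiated and 1 no differentiated array above 50. Tnr, tenascin-R, rose at least 17.3-fold and the proteoglycan Gpc4 by 4.46 ± 0.15, and Cspg5 and Thbs4 fell by 2.14 ± 0.09 and 2.15 ± 0.13.

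Counts for metabolic lists changed without undifferentiated replicate 3, which was the lowest of its group for 22 of 24 genes of hypoxia and glycolysis and for 22 of 23 of cholesterol synthesis. Of 21 hypoxia and glycolysis genes tested 4 rose and 7 fell, and 12 fell without that array. Vegfa, the vascular growth factor, was at 2408, 2343 and 987.1 before and 163.7, 162.2 and 169.6 after (-3.30 ± 0.30). Slc2a1, the glucose transporter, shows the spread at its widest, at 1097, 1119 and 71.4 before and 1437, 1642 and 1336 after, and did not pass (1.63 ± 0.85). Of 22 tested genes of cholesterol synthesis 10 fell and none rose, and 15 fell without that array. For the integrated stress response 7 of 18 fell and 4 rose, against 11 and 2 without it, and its factor Atf4 fell by 1.07 ± 0.16. Nupr1, a stress-induced chromatin protein, rose at least 14.8-fold. In fatty acid synthesis 4 of 11 rose and 2 fell, with the desaturase Scd at 1.10 ± 0.14. Of 15 genes of apoptosis and p53 2 rose and 6 fell.

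**Figure D2:**
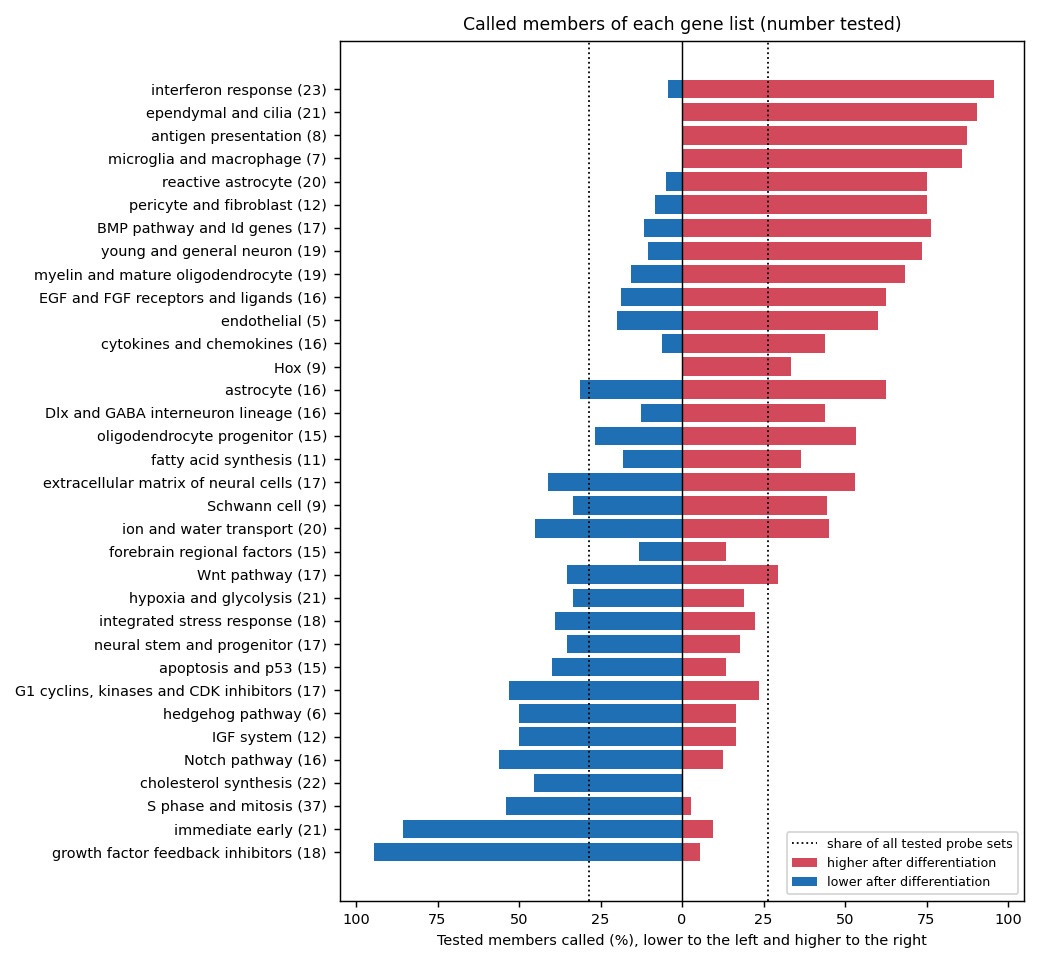
Share of the tested members of each of 34 gene lists called higher (red, right) or lower (blue, left) after differentiation, with the number tested in parentheses and the shares over all tested probe sets (26.3% higher, 28.5% lower) as dotted lines. Interferon and cilia genes lie far to the right and immediate early and feedback inhibitor genes far to the left of those lines. Antigen presentation and microglia genes also lie far to the right, with 8 of 14 and 7 of 24 measured genes tested. Of those 7 microglia genes 5 had no undifferentiated array above 50. They passed the filter only through the differentiated arrays, so their bar is not read as a result. Such members also add to the right side of other bars. They were 8 of 21 cilia, 7 of 20 reactive astrocyte, 7 of 19 neuron, 6 of 17 BMP, 6 of 23 interferon and 4 of 12 pericyte genes. On the left, 4 of 21 immediate early genes had no differentiated array above 50.

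**Figure D3:**
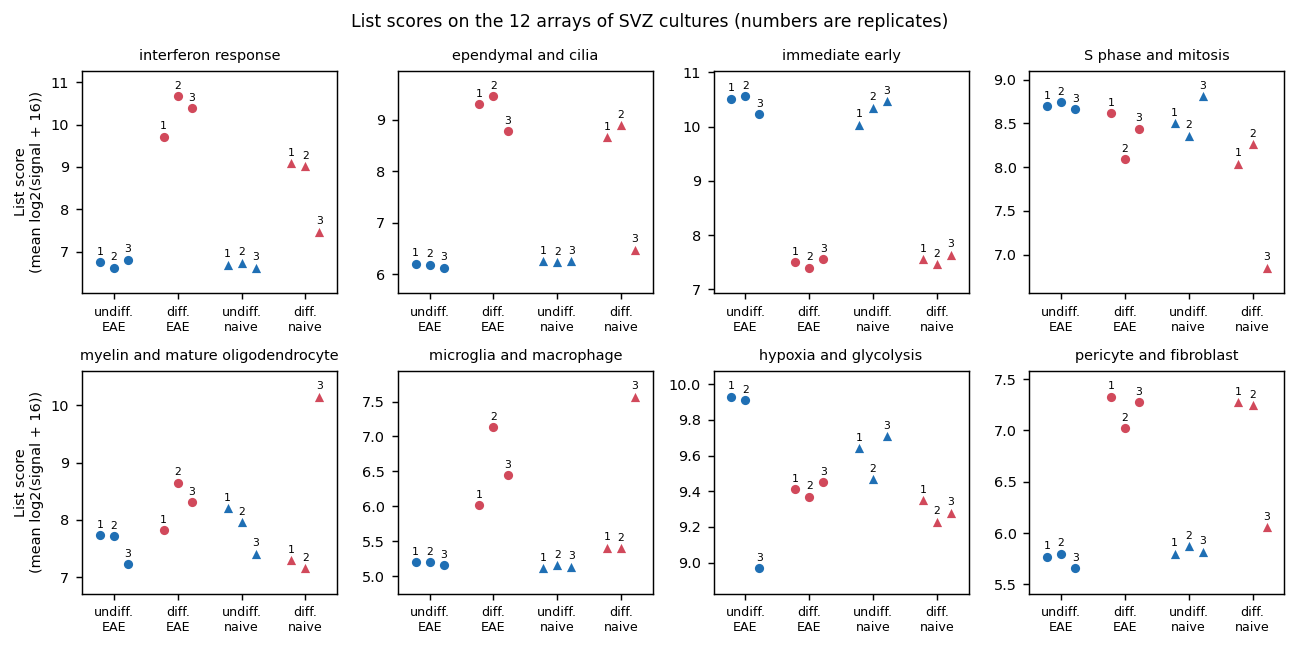
Mean log2(signal + 16) of the genes of 8 lists on the 12 arrays of SVZ cultures (circles EAE, triangles naive, blue undifferentiated, red differentiated, with replicate numbers beside the points). The immediate early score falls alike on all differentiated arrays, while differentiated naive replicate 3 is lowest of its group for cilia and interferon genes and highest for myelin and microglia genes.

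Differentiation in EAE and naive SVZ cultures was compared by testing the difference between both effects over 12 arrays. Of 18186 probe sets limma called 0, or 0% of those tested, and 1480 had an unadjusted p under 0.05. Each effect by itself was called for 49.2% of probe sets in EAE (23.8% higher, 25.4% lower) and 47.4% in naive cultures (17.8% higher, 29.6% lower). The smallest p among genes that changed more in the EAE direction belonged to Uba7, the enzyme that activates Isg15 for conjugation. It went from 74.2, 49.7 and 61.6 to 559, 1008 and 894.8 in EAE and from 74.1, 64.5 and 68.2 to 172.7, 161.3 and 122.6 in naive cultures, a difference of 2.42 ± 0.28 on the log2 scale (adjusted p = 0.0604). All 3 differentiated EAE arrays were above all 3 naive ones. Entpd2, an ectonucleotidase, and Neu4, a sialidase, stood at 1.67 ± 0.25 and 1.43 ± 0.19.

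On the other side were genes of growth factor feedback. Dusp6 went from 1649, 2318 and 2091 to 804.9, 709.7 and 880.6 in naive cultures, a smaller drop from a lower start than in EAE (difference -1.91 ± 0.27, adjusted p = 0.11). Spry4 went from 938.9, 1250 and 1046 to 216.2, 173.8 and 203.7 (-1.51 ± 0.25), and Rgs16, a regulator of G protein signalling, differed by -1.59 ± 0.25. The undifferentiated EAE arrays were the highest of the 12 for Dusp6 and Spry4, and the differentiated EAE arrays the lowest. None of these passed the threshold.

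Side by side, the interferon list had a median log2 difference of 3.04 in EAE and 1.82 in naive cultures, with 22 and 18 of 23 genes called higher. Isg15 was at 1246, 1377 and 123.2 on the differentiated naive arrays, all below the EAE ones, and its difference was 2.24 ± 0.96 (adjusted p = 0.586). Ifit3 was at 211.7, 596.2 and 192.8 there, a difference of 4.94 ± 0.93 (adjusted p = 0.196). The summed microglial signal was 1843 to 3932 on the differentiated EAE arrays and 1416, 1327 and 5792 on the naive ones, and its part in these values was not tested. Cilia genes had medians of 2.97 and 1.97, oligodendrocyte progenitor genes 0.55 and -0.07, S phase and mitosis genes -0.41 and -0.92, and immediate early genes -3.08 and -2.86. Differences between these medians were not tested. The naive medians include differentiated naive replicate 3. It was the lowest of its group for 21 of 21 cilia, 21 of 23 interferon and 35 of 37 S phase and mitosis genes. It was the highest for 13 of 16 oligodendrocyte progenitor genes. List scores of S phase and mitosis genes were 8.50, 8.36 and 8.81 on undifferentiated and 8.04, 8.26 and 6.85 on differentiated naive arrays.

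Differentiated naive replicate 3 lay far from its group in several lists. Besides its microglial sum, its summed cilia signal was 1912 against 12725 and 14952 on the other differentiated naive arrays. Gfap was at 1409 there against 4248 and 4259. Its summed myelin signal was 47956 against 7162 and 5989 on its companions and 10194, 20628 and 13560 on the differentiated EAE arrays. The array was the highest of its group for 22 of 22 myelin and 13 of 16 oligodendrocyte progenitor genes. Leaving it out therefore lowers the naive level of both lists. Without it 140 probe sets were called, 0.77% of those tested, 130 higher (0.715%) and 10 lower (0.055%) in EAE. They included 7 oligodendrocyte progenitor, 4 myelin and 3 interferon genes on the higher side and 3 feedback inhibitors on the lower. Gpr17, for example, was at 150.4 and 385 on differentiated naive replicates 1 and 2 and 508.8 on replicate 3, against 1343 to 1514 in EAE. Without differentiated EAE replicate 1, 44 were called.

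**Figure D4:**
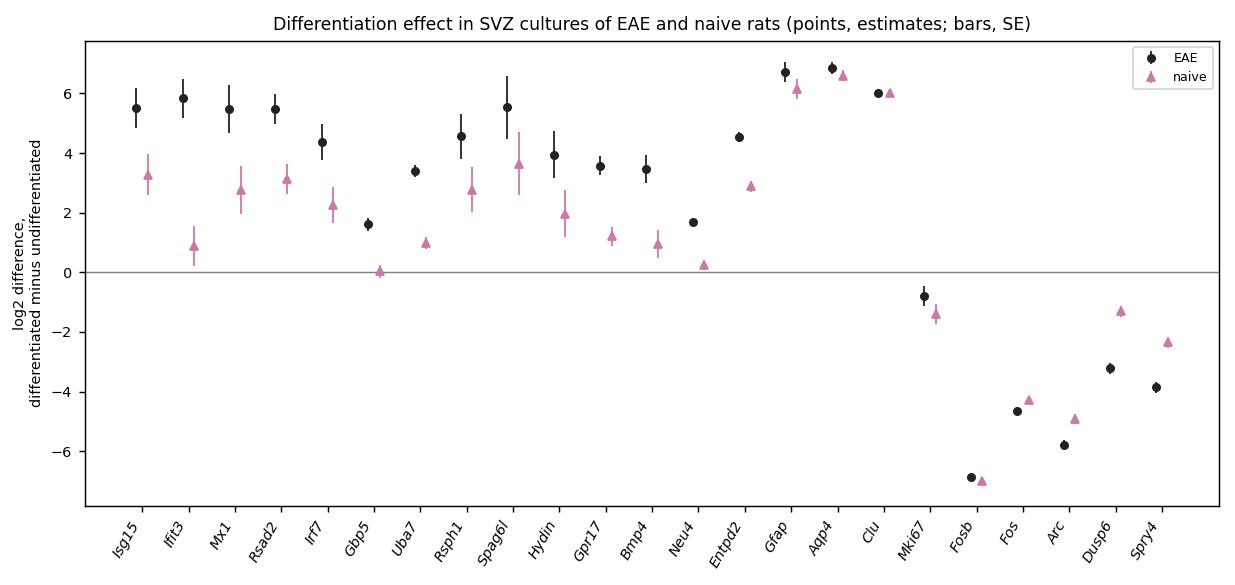
Log2 difference between differentiated and undifferentiated SVZ cultures in EAE (black circles) and naive (pink triangles) rats, from 1 fit of 12 arrays, with bars for the SE. Interferon and cilia genes have higher estimates in EAE with wide errors, while Gfap, Aqp4, Clu and Fosb lie close together in both.

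The SVZ differed widely from the cord in the effect of differentiation within EAE. In 1 fit of 24 arrays the difference between the SVZ effect and the mean effect of cervical, thoracic and caudal cultures was called for 8054 of 19594 probe sets, 41.1%, with 28.3% higher and 12.8% lower in the SVZ. The labels do not say whether regions shared animals. The share on the higher side depended on scaling, since it was 68.8% of calls as deposited and 41% and 39.7% after quantile and 75th percentile scaling. The median difference over all probe sets was 0.128 as deposited and -0.127 and -0.15 after those scalings.

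Gfap and Aqp4 had the largest differences on the higher side. Gfap rose in SVZ cultures, and on the 9 undifferentiated cord arrays it had signals of 247.9 to 819.2 (median 358.5) and on the 9 differentiated ones 55.6 to 170.5 (median 144.7). The difference between the effects was 8.37 ± 0.40 (adjusted p = 5.57e-14). For Aqp4 it was 8.02 ± 0.50, with cord signals of 68.7 to 606.4 before and 20.1 to 138.4 after. Tnr rose in the SVZ but ran from 2631 to 4028 down to 142.8 to 275.6 in the cord, a difference of 7.90 ± 0.19. Of 17 astrocyte genes tested 10 had a higher effect in the SVZ and 1 a lower one, and the medians were 0.89 in the SVZ and -1.33, -1.14 and -1.01 in cervical, thoracic and caudal cultures.

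No interferon gene was called higher in the cord. Isg15 was at 23.6 to 51.7 on undifferentiated and 29.1 to 53.3 on differentiated cord arrays, which overlap. The median interferon difference was 3.04 in the SVZ and -0.05, -0.03 and -0.30 in the 3 cord regions, and 22 of 23 genes had a higher effect in the SVZ under all 3 scalings. Rsph1 was at 11.8 to 24.9 before and 24.6 to 39.2 after in the cord, and the cilia medians were 2.97 against 0.37, 0.02 and 0.02. In cervical cultures 11 of 21 cilia genes rose and 2 fell, where 25.5% of all probe sets were higher and 31.2% lower. In thoracic cultures 0 rose and 2 fell (7.86% and 27.9% of all), and in caudal cultures also 0 and 2 (10.2% and 33.6%). Of 23 interferon genes 4, 5 and 7 fell in cervical, thoracic and caudal cultures. Of 21 cilia genes 19 were higher in the SVZ as deposited and 17 under either other scaling. Chst5, a sulfotransferase, Rgs22 and Ifgga2l1 were the other genes with the largest positive differences, at 6.96 ± 0.33, 7.82 ± 0.18 and 7.12 ± 0.24.

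Cell cycle genes had a larger fall in the cord. Mki67 went from 646.1 to 1817 (median 858.4) on the 9 undifferentiated cord arrays to 54.5 to 147.7 (median 111.2) on the differentiated ones, against 311.8 to 484.2 on differentiated SVZ arrays. Of 37 genes of S phase and mitosis 30 had a higher effect in the SVZ, with medians of -0.41 there and -2.59, -2.35 and -2.86 in the cord. Oligodendrocyte progenitor genes had medians of 0.55 in the SVZ and -1.71, -1.08 and -1.61 in the cord, with 13 of 16 higher in the SVZ and 2 lower. For neuronal genes the medians were 0.86 and -1.34, -0.82 and -1.08, and 18 of 19 were higher in the SVZ. Pdgfra had signals of 762.1 to 1651 (median 1167) on undifferentiated and 116.3 to 560.3 (median 290.3) on differentiated cord arrays. Myelin genes had medians above 0 in all 4 regions, at 0.99 in the SVZ and 1.05, 1.10 and 1.39 in the cord, where Mbp was already at 3738 to 5769 before differentiation.

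On the negative side Nrgn came first. It had cord signals of 139.8 to 189.3 before and 96.6 to 174.3 after, with overlapping ranges, and its difference was -7.58 ± 0.18. It was -7.11 ± 0.16 for Il20rb, -5.74 ± 0.15 for Arc, -5.49 ± 0.14 for Dgkg and -5.46 ± 0.36 for Igfbp4, whose cord signals of both stages overlapped as well. Gjc3 moved in opposite directions, from 890.1 to 2583 up to 3887 to 6066 in the cord (-4.98 ± 0.37). For Fos the estimate was -4.65 in the SVZ and -3.31, -2.86 and -3.64 in cervical, thoracic and caudal cultures. Cholesterol synthesis genes had a lower effect in the SVZ for 14 of 23, with medians of -0.33 there and 0.20 to 0.33 in the cord.

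**Figure D5:**
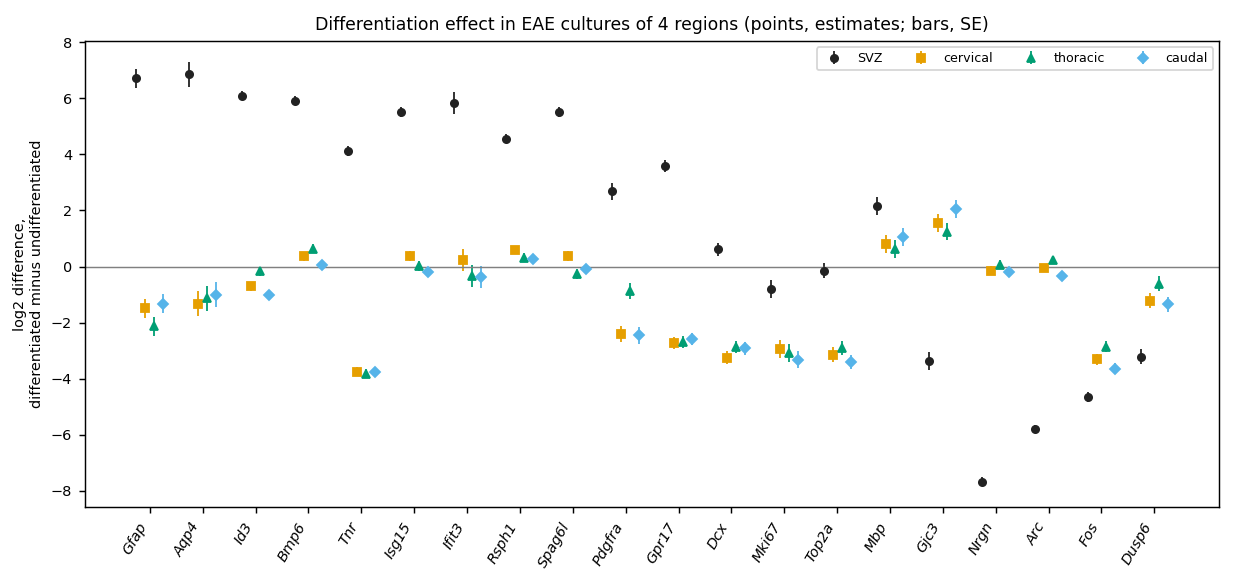
Log2 difference between differentiated and undifferentiated EAE cultures in 4 regions for 20 genes, from 1 fit of 24 arrays, with bars for the SE. Gfap, Aqp4, Id3, Tnr, interferon and cilia genes lie far above 0 in the SVZ and near or below it in the cord, Gjc3 lies below 0 in the SVZ and above it in the cord, and Fos lies below 0 in all 4.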

How the data were processed

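The values are linear array intensity, deposited by the authors as 1 table of all samples. They are gene-level PLIER estimates with GC-matched background correction and global median scaling, per the file headers, made with Affymetrix Expression Console per the submitters' processing notes, which give no version. Genome build and array design were not given in the sources used here. Array columns were matched to samples by title, and groups follow the titles.

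Of 29215 probe sets, 27342 were main design probes, and 19852 had a single gene symbol in the platform annotation, 1407 several and 6083 none. Of the single symbols 18580 were matched to RefSeq assembly GRCr8, which changed 5599. Each gene was represented by its probe set with the highest mean over the 6 arrays, so that 634 of 685 listed genes were measured. Of 438 genes with several tested probe sets 8 had opposite calls among them.

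Main probe sets with a signal above 50 on at least 3 arrays were tested as log2(signal + 16) in limma 3.58.1 under R 4.3.3, with Benjamini-Hochberg adjustment, at an adjusted p of 0.05 and a fold of 1.2. Differences between effects were interaction terms over 12 and 24 arrays. The fits were also run on simulated data in which few probe sets changed, unlike here, so that run is no check of the counts given above. Alternatives were the added constant, the filter, 2 scalings, all 18 groups in 1 fit, the replicate number as a block, the methods' t-test, the same test on linear signals, and each array left out. A fit of 12 SVZ arrays was added after seeing the data.

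The members and lists were chosen with earlier results of these data known. Genes named are the 12 largest rises and falls, up to 5 called genes in each direction per list, a short set of markers, and, per direction, the 6 largest called interaction terms or the 3 with the smallest p. Prom1, C3, Lcn2, Serpina3n, Slc2a1, Opalin, Hapln2, Dnah5, Rfx3, Dcn, Lum, Postn, Aspn, Fap and the genes named for promoter motifs other than Egr1, Egr2, Ifit3 and Rsad2 were named after their values were seen. Values of some genes are not reported here.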

Additional observations from a re-analysis of the deposited data

Results flagged for a closer look

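The effect of differentiation differed between EAE cultures of the SVZ and of the cord, and that difference was itself tested as an interaction term in limma over 24 arrays. It was called for 8054 probe sets. In log2 units, SVZ effect minus mean cord effect, the leading genes on the higher side were Gfap at 8.37, Aqp4 at 8.02, Tnr at 7.90, Rgs22 at 7.82, Ifgga2l1 at 7.12 and the sulfotransferase Chst5 at 6.96. Those on the lower side were Nrgn at -7.58, Il20rb at -7.11, Arc at -5.74, Dgkg at -5.49, Igfbp4 at -5.46 and Gjc3 at -4.98.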

How the results depend on the processing

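The number of probe sets called for differentiation of EAE SVZ cultures was 9554, and 8837 to 9597 with 1 array left out. It was 5334 when all 18 groups shared 1 estimate of the spread, and 8101 by the methods' t-test. In the fit of 12 SVZ arrays, added after seeing the data, it was 8730, and neural matrix genes that fell went from 7 to 4 and Schwann cell genes that rose from 4 to 2. No named gene that was called changed direction under any alternative run. Calls were less stable, since 35 of 146 genes gained or lost theirs in at least 1 of 15 alternatives for differentiation of EAE SVZ cultures. For the difference between EAE and naive cultures the count was 0, and 17 with all 18 groups in 1 fit. With 1 array left out it ran from 0 to 140, the latter without differentiated naive replicate 3. It was 44 without differentiated EAE replicate 1, 17 without differentiated naive replicate 2, and 1 each without undifferentiated EAE replicate 1 or differentiated naive replicate 1. The cause of these changes was not tested. For the difference between SVZ and cord it was 8054, 11062 after quantile scaling, 10383 after 75th percentile scaling and 7106 to 8528 with 1 array left out.

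The labels give groups the same replicate numbers. Correlations between the deviations of same-numbered arrays of both stages were 0.023, 0.017 and -0.008 in EAE SVZ cultures, -0.088 to -0.008 in naive SVZ cultures and -0.205 to 0.259 in EAE cord cultures, and in no region were all 3 above 0.1, so the numbers were not taken to pair the arrays. With the replicate number as a block 9403 probe sets were called for differentiation in EAE SVZ cultures, 0 for the difference from naive and 7035 for the difference from cord. With 3 arrays a group, and signals below 50 close to background, small changes of dim genes are limited by precision.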
